A study of Mus musculus with 32 samples.

Results

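The hepatic response to a Western diet (WD) was compared between female and male mice, gene by gene. The quantity reported is an interaction: the log2 fold change of WD over control diet (CD) in females minus the same fold change in males, averaged with equal weight over Nudt7-/- (KO) and WT mice. A positive value means a higher WD-to-CD ratio in females than in males, and a negative value a lower one. Its members are all autosomal genes that passed a filter on low counts, which were 13109 genes of the 13539 tested and of the 35523 in the table. At an adjusted p under 0.05, 33 of them were called (edgeR quasi-likelihood test, Benjamini-Hochberg adjustment).

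Liver mRNA was sequenced in 32 mice, 4 in each of 8 groups. These were KO and WT females on the WD, KO and WT females on the CD, KO and WT males on the WD, and KO and WT males on the CD. All were labelled C57BL/6J. Feeding started at 6 weeks of age and livers were collected at 17 to 20 weeks. The WD drew 41% of its energy from fat and held 0.2% cholesterol, against 10% and 0% in the CD. KO mice lacked exons 3 and 4 of Nudt7 in every tissue. The line came from 1 mosaic founder made in FVB zygotes, was crossed back to C57BL/6J over 6 generations, and WT littermates served as controls. Whether the mice were fed or fasted at collection is not given in the sources used here.

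Dietary cholesterol lowers the transcription of the sterol synthesis genes in liver, because sterols in the endoplasmic reticulum hold back the transcription factor SREBP2. Fatty acids act as ligands of PPARα, the nuclear receptor that drives the genes of peroxisomal, mitochondrial and ω-oxidation. Many mouse liver genes also differ between the sexes under the pattern of growth hormone secretion, among them cytochromes P450, sulfotransferases and the major urinary proteins.

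Libraries held 10140048 to 15825078 estimated counts, with a median of 13000302. Values per library are given as CPM, counts scaled to a common library total with TMM factors. Hepatocyte markers summed to between 49100 and 98280 CPM. Y-linked genes fitted the sex label in every library, at 0.178 to 1.39 CPM in females and 141 to 217 CPM in males. Nudt7 averaged 36.5 ± 17.8 CPM in KO and 130.5 ± 32.4 CPM in WT females on the WD, and 32.6 ± 11.0 and 178.6 ± 46.8 CPM on the CD. It averaged 86.3 ± 50.4 CPM in KO and 511 ± 105 CPM in WT males on the WD, and 141 ± 89.8 and 487 ± 165 CPM on the CD (SD, n = 4 each). These are sums over all its transcripts, so they do not count intact transcript. Because whole liver was used, fewer cells of a type and less RNA per cell cannot be told apart.

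A total of 10 libraries, those under 0.45 counts of Gm13340 per 1000 of mt-Co1, stood apart from the other 22: all 8 females on the WD and KO females on the CD replicates 3 and 4. They held 0.231 to 0.321 counts of Gm13340 per 1000 counts of mt-Co1 (median 0.278), against 0.579 to 0.874 (median 0.756) in the other 22 libraries. Gm13340 is a nuclear copy of mt-Co1, 97.6% identical to it over 100% of its length. Its neighbour Gm13339, a nuclear copy of mt-Nd2 with 96.7% identity, stood at 0 to 0.0727 counts per 1000 of mt-Nd2 in the 10 libraries and at 0.115 to 0.347 in the others. The CPM of mt-Co1 itself overlapped between the sets. The labels name no batch. Among WT females this property and the WD cannot be told apart. Among KO females they can be compared apart, because 2 of the 4 on the CD share the property with the 4 on the WD. Called genes and lists are therefore set beside a second fit, chosen after seeing the data, on KO mice with females taken only from the 10 libraries (4 on the WD, 2 on the CD) against the KO males. Its 14 libraries all entered the fit of all 32 and that of KO mice, so its values for genes called in those fits are a description and not independent support.

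**Figure D1:**
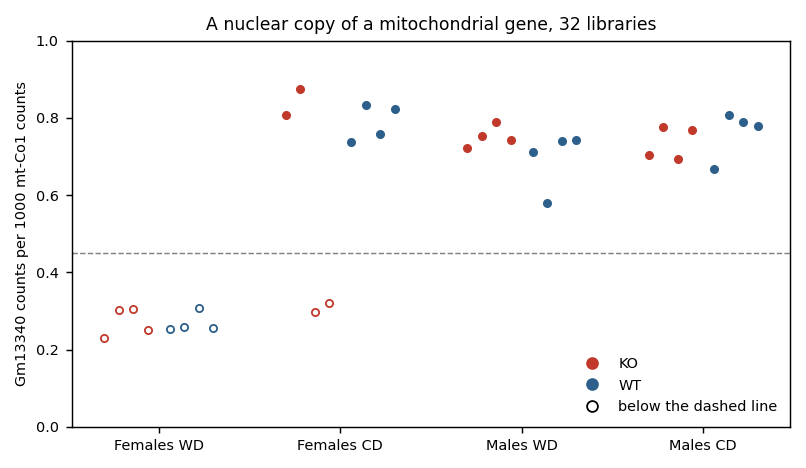
Counts of Gm13340 per 1000 counts of mt-Co1 (vertical axis) in each of the 32 libraries, by sex and diet, with KO in red and WT in blue. The 10 open points, all 8 females on the WD and 2 KO females on the CD, lie below the dashed line at 0.45 and the 22 filled points lie above it.

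Transcripts of pancreatic acinar cells were present in some libraries as well. The 15 acinar markers summed to 0.288 to 477 CPM in females on the WD, 1.77 to 6458 CPM in females on the CD, 1.25 to 55.7 CPM in males on the WD and 0.607 to 7.65 CPM in males on the CD. Above 400 CPM were WT females on the CD replicates 2 and 4, KO females on the CD replicate 3 and WT females on the WD replicate 4. KO females on the CD replicate 3 (3025 CPM) is also among the 2 females on the CD in the second fit, beside replicate 4 (1.77 CPM). All values within the 10 libraries therefore rest in part on a library with acinar transcripts. All 15 markers had a negative difference (median −8.55, or −6.69 without 8 that were at 0 in a whole group) and none was called, while 0 of 15 had an unadjusted p under 0.05 in edgeR and DESeq2 with length offsets called 12. Their median was −13 without WT females on the WD replicate 4 and −6.41 without KO females on the CD replicate 3. Without these 4 libraries 106 genes were called, 31 of the 33 among them. That fit was also chosen after seeing the data.

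Of the 13109 genes, 0.252% were called: 8 (0.061%) with a higher WD-to-CD ratio in females and 25 (0.191%) with a lower one. The difference was centred on 0, with a median of −0.00492 and 49% of genes above 0, and 1556 genes (11.9%) had an unadjusted p under 0.05. In 20 of the 33 the fitted diet effects of the sexes had opposite signs, in 12 they had the same sign with the smaller size in females, and in 1 the smaller size was in males. Over all genes tested these shares were 32.9%, 43.4% and 23.7%. Selection of the 33 by the difference between the same diet effects favours opposite signs, so their counts are no separate result. Protein-coding genes made up 27 of the 33 and pseudogenes 6. Leaving out each library in turn kept 18 of the 33 calls in all 32 fits. DESeq2 on the same sums called 202 genes, all 33 included.

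In 6 of the 33 called genes (Mup-ps18, Gm7298, Gm13339, Gm11410, Gm13340 and Gm11512) the 10 libraries lay below each of the other 22, KO females on the CD replicates 3 and 4 included. For Gm13340, whose ratio to mt-Co1 chose the 10 libraries, this follows from how the set was drawn. Gm13339 did not enter that choice but was described beside it. Apart from these 2 genes, 4 others remain. In the fit of KO mice with females only from the 10 libraries, these 6 had differences of −1.27, −0.72, −0.46, −0.01, −0.13 and 0.30, and unadjusted p between 0.247 and 0.991. The other 27 overlapped between the sets. Only the 33 called genes were compared in this way, so the share over all genes tested is not known. Of the 32 called genes that could be fitted in KO mice within the 10 libraries, 31 had the same sign. An unadjusted p under 0.05 in that direction was found for 26. Their selection from the same libraries favours both counts. With a term for the 10 libraries in the model of all 32, which was also chosen after seeing the data, 5 genes were called, among them Abcc3 (adjusted p = 0.0102), Cfd (0.0411) and Gpc1 (0.0411). Only KO females on the CD held libraries both inside and outside the set, so the term was estimated from that group alone. For WT mice it was carried over from KO mice. The smaller number of calls therefore cannot be read as an effect of the set.

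**Figure D2:**
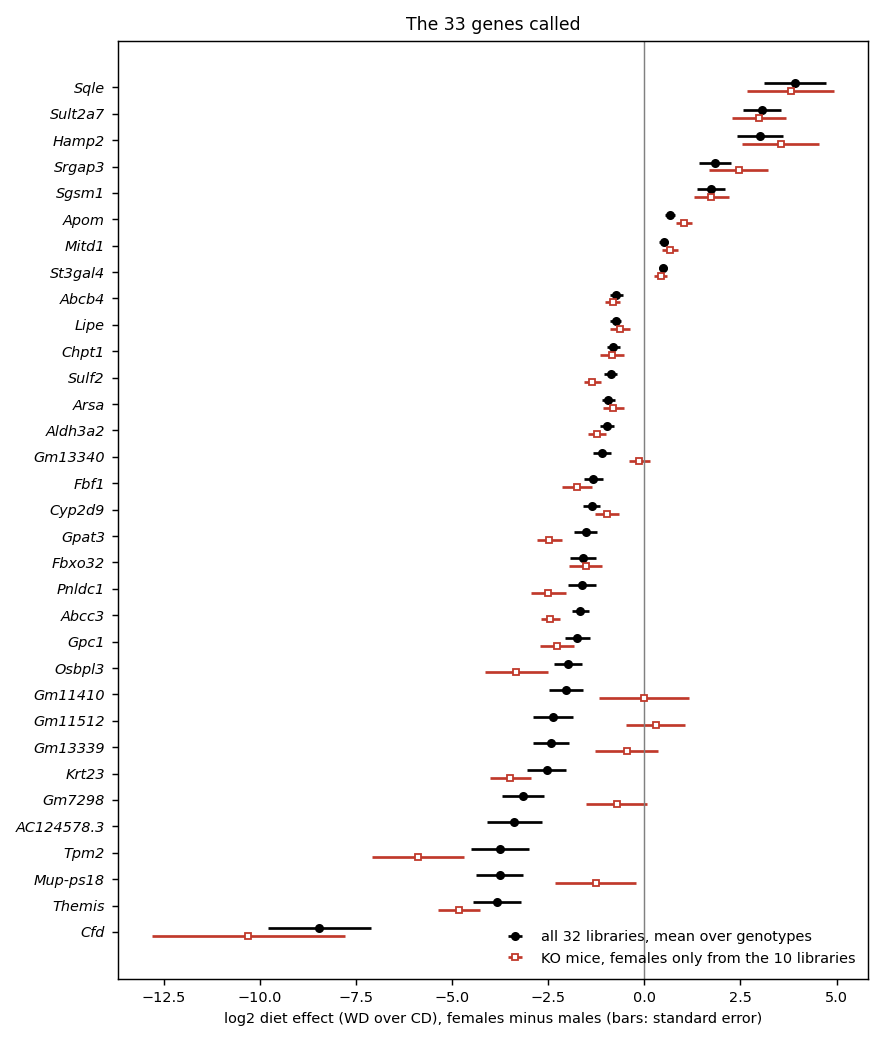
Log2 difference of the diet effect, females minus males (horizontal axis, bars are standard errors), for the 33 genes called, from all 32 libraries (black) and from KO mice with females only from the 10 libraries (red, open). Most red points stay on the side of the black ones, while those of Gm11410, Gm13340 and Gm11512 lie at −0.01, −0.13 and 0.30.

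Among the 8 genes with a higher ratio in females, Sqle had the largest difference. It encodes squalene epoxidase, a rate-controlling enzyme of cholesterol synthesis, on chromosome 15 from 59315077 to 59331192 of GRCm38. Sqle stood at 3.37 to 83.5 CPM (median 12.6) in females on the WD and at 21.9 to 112 CPM (median 77.1) in females on the CD, against 0.618 to 6.26 CPM (median 1.41) in males on the WD and 24.4 to 121 CPM (median 78.5) in males on the CD. Every male on the WD lay below every male on the CD, whereas the diets overlapped in females. The log2 difference was 3.92 ± 0.80 (SE, adjusted p = 0.0312), with 3.96 in KO and 3.87 in WT mice. Its call was lost in 14 of the 32 fits that left out a library, where the highest adjusted p was 0.0660, and the difference was 3.80 ± 1.14 in KO mice within the 10 libraries.

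Hamp2 encodes a paralogue of hepcidin, the peptide hormone that limits iron export. Its levels were 238 to 735 CPM (median 477) in females on the WD and 167 to 940.4 CPM (median 653) in females on the CD, against 1.62 to 21.2 CPM (median 14.6) in males on the WD and 28.2 to 319 CPM (median 111) in males on the CD. The 8 males on the WD were below every other library. The difference was 3.01 ± 0.59 (adjusted p = 0.0229), and 3.55 ± 1.01 within the 10 libraries. A transcript of Gm44662 matches 21.3% of Hamp2, so that part of its counts may be shared.

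Apom encodes apolipoprotein M, the HDL protein that carries sphingosine 1-phosphate. It ranged over 145 to 205 CPM (median 180.1) in females on the WD and 172 to 224 CPM (median 191) in females on the CD, against 67.4 to 138 CPM (median 104) in males on the WD and 163 to 199 CPM (median 181) in males on the CD. As for Hamp2, males on the WD lay below all other libraries. The difference of 0.68 ± 0.13 (adjusted p = 0.0146) was 0.95 in KO and 0.39 in WT mice, and Apom was also called in the fit of KO mice (adjusted p = 0.0491). It was 1.03 ± 0.22 within the 10 libraries.

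The same placing was seen for Srgap3 and Sgsm1. Srgap3, a GTPase-activating protein of SLIT-ROBO signalling, stood at 7.77 to 17.0 CPM (median 11.4) in females on the WD and 13.3 to 32.9 CPM (median 15.98) in females on the CD, against 0.877 to 3.53 CPM (median 2.64) in males on the WD and 3.82 to 21.3 CPM (median 13.1) in males on the CD. Sgsm1, a modulator of Rab GTPases, stood at 2.59 to 7.40 CPM (median 3.75) in females on the WD and 3.65 to 12.2 CPM (median 6.54) in females on the CD, against 0.661 to 2.51 CPM (median 0.924) in males on the WD and 4.53 to 8.58 CPM (median 6.91) in males on the CD. In both genes males on the WD were below every other library. The differences were 1.84 ± 0.41 for Srgap3 (adjusted p = 0.0494) and 1.73 ± 0.37 for Sgsm1 (0.0350). Without the 4 libraries with acinar transcripts the adjusted p of Srgap3 was 0.0940. The calls were lost in 25 (Srgap3) and 18 (Sgsm1) of the 32 fits that left out a library, and the differences within the 10 libraries were 2.455 ± 0.77 and 1.74 ± 0.46.

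Sult2a7, a sulfotransferase of the family that acts on steroids and bile acids, had its diets furthest apart in females. It was at 4.25 to 15.9 CPM (median 9.49) in females on the WD and 0.986 to 4.87 CPM (median 2.10) in females on the CD, against 0.638 to 2.19 CPM (median 1.62) in males on the WD and 1.37 to 10.1 CPM (median 2.62) in males on the CD. Females on the WD were above all males on the WD and met females on the CD only at the edge of their ranges. The difference was 3.06 ± 0.48 (adjusted p = 0.00335), and 2.98 ± 0.71 within the 10 libraries.

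The last 2 genes with a higher ratio in females had small differences. St3gal4, a sialyltransferase of the Golgi, was at 79.0 CPM or more (median 91.4) in females on the WD and 72.3 to 99.4 CPM (median 85.8) in females on the CD, against 53.5 to 73.0 CPM (median 63.2) in males on the WD and 80.2 to 105 CPM (median 84.7) in males on the CD. Mitd1, which acts in the last step of cell division, was at 7.77 to 11 CPM (median 8.999) in females on the WD and 7.54 to 9.37 CPM (median 8.19) in females on the CD, against 6.29 to 8.88 CPM (median 7.99) in males on the WD and 8.82 to 11.8 CPM (median 9.60) in males on the CD. The male diets separated for St3gal4 and just met for Mitd1. Differences were 0.48 ± 0.10 (adjusted p = 0.0346) and 0.50 ± 0.11 (0.0494), and the calls were lost in 17 and 23 of the 32 fits that left out a library.

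**Figure D3:**
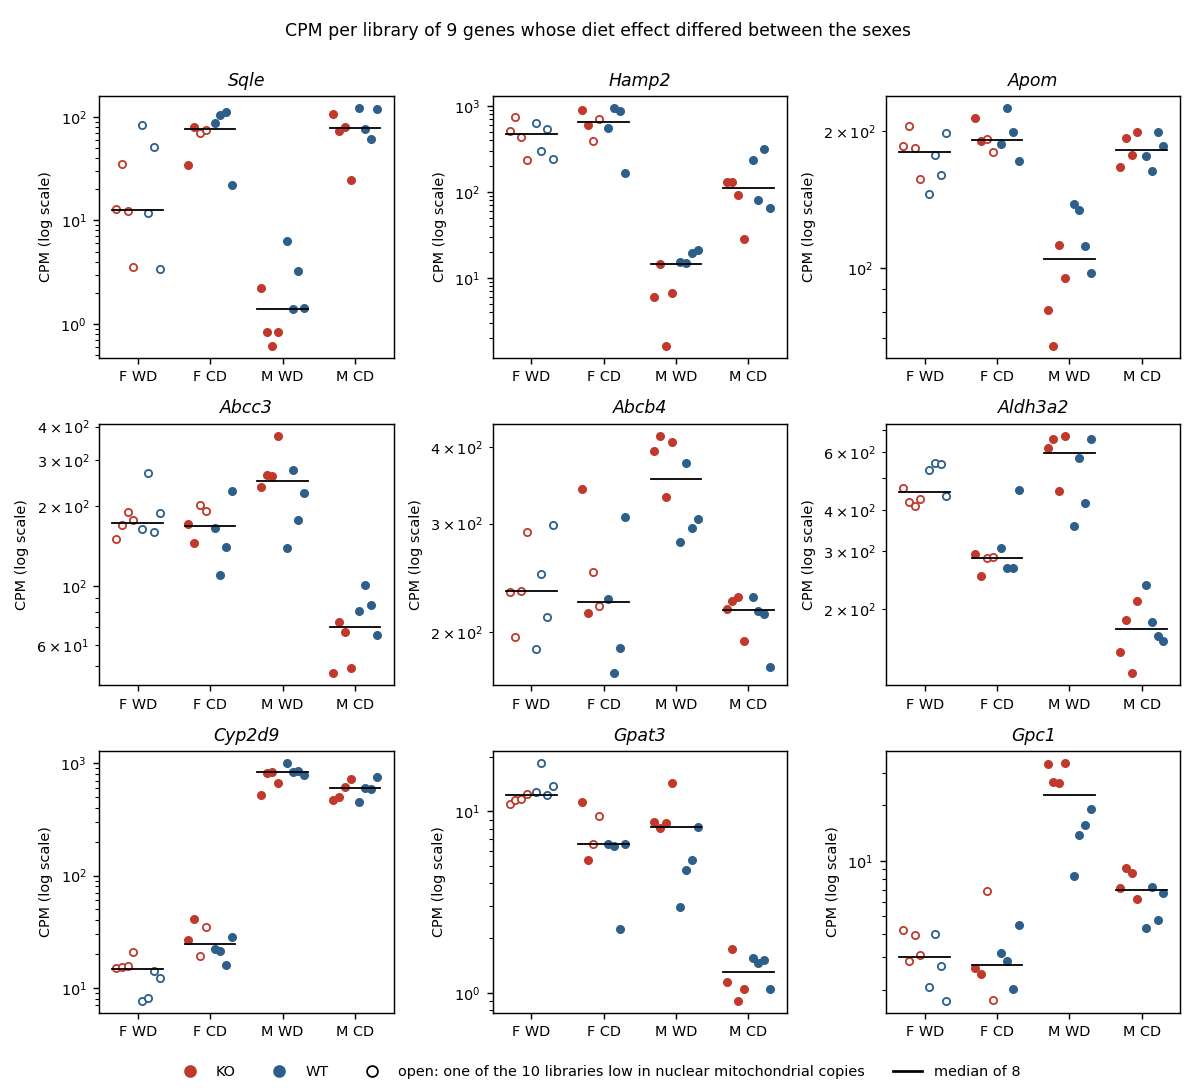
CPM on a log scale (vertical axis) of 9 called genes in every library, by sex and diet (F, females; M, males), with KO in red, WT in blue, open points for the 10 libraries that stood apart and a line at the median of 8. Males on the WD lie below every other library for Hamp2 and Apom, and above every male on the CD for Abcc3, Abcb4, Aldh3a2 and Gpat3.

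Of the 25 genes with a lower ratio in females, Abcc3 had the smallest p. It encodes MRP3, the sinusoidal exporter of conjugated bile acids and glucuronides, on chromosome 11 from 94343295 to 94392997. Its levels were 151 to 267 CPM (median 174) in females on the WD and 110.4 to 228 CPM (median 168) in females on the CD, against 139 to 369.7 CPM (median 249) in males on the WD and 47 to 100.7 CPM (median 70.4) in males on the CD. Males on the CD were below every other library, and the female diets overlapped. The difference was −1.66 ± 0.21 (adjusted p = 0.000200), with −2.31 in KO and −1.02 in WT mice. It was called in every alternative tried, all 32 fits that left out a library included (−1.76 to −1.56), and was −2.45 ± 0.24 within the 10 libraries.

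Abcb4, the canalicular floppase that supplies phosphatidylcholine to bile, and Chpt1, which makes phosphatidylcholine from diacylglycerol, were called in the same direction. Abcb4 was at 187 to 298 CPM (median 233) in females on the WD and 171 to 342 CPM (median 223) in females on the CD, against 280.1 to 417 CPM (median 354) in males on the WD and 175 to 228 CPM (median 217) in males on the CD. Every male on the WD was above every male on the CD. The difference was −0.73 ± 0.17 (adjusted p = 0.0494), and the call was lost in 23 of the 32 fits that left out a library. For Chpt1 it was −0.81 ± 0.18 (adjusted p = 0.0377), with medians of 139 CPM in females on the WD and 128 CPM in females on the CD, against 322 and 171 CPM in males. The call of Chpt1 was lost in 18 of those 32 fits. Within the 10 libraries the differences were −0.82 ± 0.19 for Abcb4 and −0.84 ± 0.31 for Chpt1.

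Aldh3a2, Gpat3 and Lipe encode enzymes of lipid metabolism. Aldh3a2, the fatty aldehyde dehydrogenase that completes ω-oxidation, was at 410.4 to 556 CPM (median 454) in females on the WD and 251 to 459.7 CPM (median 286) in females on the CD, against 356 to 671 CPM (median 595) in males on the WD and 128 to 236 CPM (median 174) in males on the CD. The diets were further apart in males, where they did not overlap, than in females. The difference was −0.98 ± 0.18 (adjusted p = 0.00963), with −1.21 in KO and −0.75 in WT mice and −1.24 ± 0.24 within the 10 libraries. Gpat3, a glycerol 3-phosphate acyltransferase at the first step of TAG synthesis, was at 10.9 to 18.4 CPM (median 12.3) in females on the WD and 2.26 to 11.2 CPM (median 6.59) in females on the CD, against 2.96 to 14.3 CPM (median 8.14) in males on the WD and 0.906 to 1.74 CPM (median 1.303) in males on the CD. Males on the CD were below every other library. The difference of Gpat3 was −1.52 ± 0.30 (adjusted p = 0.0177). Lipe, the hormone-sensitive lipase, had −0.74 ± 0.15 (0.0185), and −0.64 ± 0.27 within the 10 libraries.

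Cyp2d9, a male-predominant steroid hydroxylase, kept its sex difference on both diets. It was at 7.70 to 20.9 CPM (median 14.6) in females on the WD and 15.9 to 41.1 CPM (median 24.4) in females on the CD, against 519 to 997 CPM (median 826) in males on the WD and 451 to 752 CPM (median 599) in males on the CD. All males were above all females. The difference was −1.37 ± 0.22 (adjusted p = 0.00335), −1.17 in KO and −1.58 in WT mice, and −0.98 ± 0.32 within the 10 libraries. Cyp2d10 is 96.3% identical over 43.6% of the transcript, so counts can be divided between the 2 genes, and its own difference was −0.05 (adjusted p = 0.939).

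Cfd had the lowest value among the 33 called genes, −8.45 ± 1.33 (adjusted p = 0.00335). It encodes complement factor D (adipsin), made mainly by adipocytes. It stood at 0 to 8.94 CPM (median 0.103) in females on the WD and 0 to 9.54 CPM (median 3.51) in females on the CD, against 7.40 to 95.7 CPM (median 25) in males on the WD and 0 to 1.51 CPM (median 0.165) in males on the CD. Males on the WD were above all males on the CD and overlapped only the upper end of the females. Under 3 counts, which equal 0.190 to 0.297 CPM, were 5 of the 8 females on the WD and 4 of the 8 males on the CD, so the size of the log2 value depends on the fit and is no bound. The 6 adipocyte markers, Cfd among them, summed to 6.05 to 59.4 CPM in females on the WD and 6.33 to 33.2 CPM in females on the CD, against 16.1 to 104 CPM in males on the WD and 6.31 to 16.5 CPM in males on the CD. Of the highest sum, 104 CPM, Cfd itself made up 95.7 CPM, so the sum is no measure apart from Cfd. Adipoq was at 0 in 16 and Lep in 22 of the 32 libraries. All 5 tested markers had a negative difference (median −2.35) and only Cfd was called. That median was −6.19 without KO females on the WD replicate 4 and −0.94 without WT males on the WD replicate 4. The part of adipocyte RNA in the value of Cfd was not tested.

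Themis, known for its role in the selection of thymocytes, was at 0.194 to 0.795 CPM (median 0.437) in females on the WD and 0 to 1.02 CPM (median 0.343) in females on the CD, against 1.48 to 10.3 CPM (median 7.46) in males on the WD and 0.0889 to 0.570 CPM (median 0.295) in males on the CD. Males on the WD were above every other library. The difference was −3.83 ± 0.63 (adjusted p = 0.00335), and −4.83 ± 0.55 within the 10 libraries. The 11 lymphocyte markers summed to 5.83 to 9.32 CPM in females on the WD and 7.31 to 28.9 CPM in females on the CD. In males the sums were 5.29 to 9.51 CPM on the WD and 5.07 to 11.1 CPM on the CD. None of the 10 markers tested was called or had an unadjusted p under 0.05 in edgeR (median −0.48). DESeq2 with length offsets called 0 and gave 1 such p. The part of lymphocyte RNA in the value of Themis was not tested.

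Krt23 and Tpm2 encode parts of the cytoskeleton. Krt23, a type I keratin, was at 0.648 to 1.71 CPM (median 1.11) in females on the WD and 0.243 to 4.13 CPM (median 0.856) in females on the CD, against 1.89 to 7.58 CPM (median 3.59) in males on the WD and 0.576 to 1.04 CPM (median 0.767) in males on the CD. Tpm2, a tropomyosin of contractile cells, was at 3.83 to 9.18 CPM (median 6.81) in females on the WD and 2.49 to 122 CPM (median 9.33) in females on the CD, against 5.29 to 22.9 CPM (median 12.6) in males on the WD and 1.3 to 7.38 CPM (median 2.20) in males on the CD. Krt23 separated the male diets, Tpm2 did not. Their differences were −2.54 ± 0.51 (adjusted p = 0.0185) and −3.76 ± 0.75 (0.0256). The 122 CPM of Tpm2 belong to KO females on the CD replicate 3, one of the libraries with acinar transcripts. Without those 4 libraries Tpm2 had −3.19 (adjusted p = 0.0332). Its call was lost in 5 of the 32 fits that left out a library, where the highest adjusted p was 0.0636. With the replicate number as a block it was lost too. That of Krt23 was lost in 1 of the 32 fits. The muscle filament gene Des, of the stellate cell list, reached 73.8 CPM in females on the CD and had −1.49 ± 0.56 (unadjusted p = 0.0135, adjusted 0.310).

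Mup-ps18, a pseudogene of the major urinary protein cluster, was at 0 to 0.255 CPM (median 0.101) in females on the WD and 0.122 to 1.22 CPM (median 0.723) in females on the CD, against 3.59 to 10.3 CPM (median 5.48) in males on the WD and 1.3 to 3.99 CPM (median 2.47) in males on the CD. Its difference was −3.77 ± 0.62 (adjusted p = 0.00335). KO females on the CD held 0.122 and 0.154 CPM in the 2 libraries that stood apart and 1.19 and 1.22 CPM in the other 2. The same division within KO females on the CD was seen for Gm7298 (0.122 and 0.154 CPM against 1.35 and 1.87 CPM), Gm13339 (0.182 and 0.462 CPM against 1.67 and 1.79 CPM) and Gm11512 (0 and 0.304 CPM against 1.38 and 1.91 CPM). This division follows from their grouping as genes lower in each of the 10 libraries than in the other 22, so it is no separate support.

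Gm7298, annotated as protein coding and 95.8% identical to Mug1 over 20% of its transcript, was at 0 to 0.259 CPM (median 0.198) in females on the WD and 0.122 to 1.87 CPM (median 1.31) in females on the CD, against 1.35 to 3.94 CPM (median 2.59) in males on the WD and 0.953 to 2.31 CPM (median 1.72) in males on the CD, and had −3.16 ± 0.55 (adjusted p = 0.00561). Gm13339 was at 0 to 0.421 CPM (median 0.257) in females on the WD and 0.182 to 1.79 CPM (median 1.46) in females on the CD, against 1.08 to 1.95 CPM (median 1.65) in males on the WD and 0.978 to 2.36 CPM (median 1.42) in males on the CD, and had −2.44 ± 0.47 (0.0147). Gm11512 was at 0.127 to 0.601 CPM (median 0.317) in females on the WD and 0 to 2.68 CPM (median 1.64) in females on the CD, against 1.35 to 2.15 CPM (median 1.59) in males on the WD and 0.747 to 2.31 CPM (median 1.12) in males on the CD, and had −2.38 ± 0.53 (0.0445), a call lost in 25 of the 32 fits that left out a library. In males the diets overlapped for all 3 genes, and the low values were those of the 10 libraries.

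The remaining called genes, all with a lower ratio in females, had differences between −3.38 and −0.88. They included Sulf2 (−0.88 ± 0.16, adjusted p = 0.00783), a heparan sulfate 6-O-endosulfatase, and Gpc1 (−1.74 ± 0.31, 0.00814), a glypican whose heparan sulfate chains such enzymes edit. Arsa, the lysosomal arylsulfatase A, had −0.94 ± 0.17 (0.00814). Osbpl3, of the oxysterol-binding protein family, had −1.995 ± 0.36 (0.00814) and reached 31.6 CPM in males on the WD. Fbxo32, the ubiquitin ligase atrogin-1, had −1.60 ± 0.34 (0.0331), Fbf1 of the ciliary base −1.33 ± 0.26 (0.0147) and Pnldc1, a 3′ exonuclease that trims piRNAs, −1.63 ± 0.36 (0.0445). Calls were lost in 12 (Fbxo32) and 22 (Pnldc1) of the 32 fits that left out a library. Sulf2 had −1.35 in KO and −0.41 in WT mice (unadjusted p in WT mice = 0.0939, edgeR). Pnldc1 had −2.45 in KO and −0.81 in WT mice (0.160). AC124578.3, a processed pseudogene, had under 3 counts in all 8 females on the WD and −3.38 ± 0.71 (0.0312). Its call was lost in 9 of the 28 fits that left out a library and still tested it. In KO females on the CD it was at 0.061 and 0.231 CPM in the libraries that stood apart and at 0.476 and 0.811 CPM in the others. It could not be fitted within the 10 libraries, and with the term for them it had −1.61 ± 1.04 (unadjusted p = 0.132). Gm11410 had −2.04 ± 0.43 (0.0331) and Gm13340 −1.10 ± 0.24 (0.0378), with calls lost in 14 and 22 of the 32 fits.

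Gene lists were described by counts and medians beside those of all genes, whose median was −0.00492 with 11.9% at an unadjusted p under 0.05. The sterol lists lay on the positive side. All 18 tested genes of cholesterol synthesis had a positive difference (median 1.299, range 0.40 to 3.92), 16 of them at an unadjusted p under 0.05, and 1 was called, Sqle. DESeq2 with length offsets called 6 of the 18. The median was 1.21 in KO and 1.41 in WT mice, and 1.09 in KO mice within the 10 libraries, where 18 of 18 were positive and 6 had an unadjusted p under 0.05. With the term for those libraries 5 of 18 had such a p and 0 were called. Leaving out each library in turn gave medians between 1.11 and 1.43.

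After Sqle, the members of cholesterol synthesis with the smallest p were Tm7sf2, a sterol C14 reductase, Mvk, mevalonate kinase, and Mvd, mevalonate diphosphate decarboxylase. Mvd was at 1.36 to 29.6 CPM (median 5.12) in females on the WD and 7.15 to 50.1 CPM (median 26.8) in females on the CD, against 0.850 to 5.47 CPM (median 1.54) in males on the WD and 14.2 to 57.7 CPM (median 32.7) in males on the CD. The male diets were separate and the female diets overlapped, as for Sqle. None of these 3 passed: the difference was 1.33 ± 0.31 for Tm7sf2 (unadjusted p = 0.000261, adjusted 0.0740), 1.19 ± 0.33 for Mvk (0.00110, 0.129) and 2.66 ± 0.74 for Mvd (0.00147, 0.141).

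The promoters of sterol genes are shown because SREBP2 and its partner NF-Y are known to bind there. RefSeq promoters of GRCm38.p6, cut to 250 bases upstream of the start, were searched on both strands for TCACNCCAC (core of the sterol regulatory element), CCAAT (NF-Y) and CACGTG (E-box). No motif matches overlapped in the sequences shown. Of 32851 promoters, 1.05% held the first, 33.8% the second and 6.02% the third. Of 18 promoters for 15 of the 20 cholesterol synthesis genes, 1 held the first (5.56%), 14 the second (77.8%) and 3 the third (16.7%). Of 24 promoters for 20 of the 33 called genes, 0 held the first, 7 the second (29.2%) and 4 the third (16.7%). A match is a description of the letters and not a binding site. Capitals mark the matches on either strand, so ATTGG is CCAAT read on the other strand. Aldh3a2 was the called gene shown. Hmgcs1, the gene of cytosolic HMG-CoA synthase (difference 1.16 ± 0.41, adjusted p = 0.262), and Mvk were chosen after their values were seen.
Hmgcs1, chr13:119690101-119690350, plus strand, 1 match of TCACNCCAC and 3 of CCAAT: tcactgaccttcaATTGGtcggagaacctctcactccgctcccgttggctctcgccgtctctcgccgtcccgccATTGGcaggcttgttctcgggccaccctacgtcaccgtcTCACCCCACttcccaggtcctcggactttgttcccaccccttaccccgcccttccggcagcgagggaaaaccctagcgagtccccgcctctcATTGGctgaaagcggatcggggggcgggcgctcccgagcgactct
Mvk, chr5:114444019-114444268, plus strand, 5 matches of CCAAT: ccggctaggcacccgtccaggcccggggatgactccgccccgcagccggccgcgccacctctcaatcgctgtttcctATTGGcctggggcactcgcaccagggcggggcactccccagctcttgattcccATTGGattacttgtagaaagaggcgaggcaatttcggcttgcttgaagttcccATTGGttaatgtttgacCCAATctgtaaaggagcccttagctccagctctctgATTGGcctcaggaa
Aldh3a2, chr11:61267187-61267436, minus strand, 1 match of CCAAT and 1 of CACGTG: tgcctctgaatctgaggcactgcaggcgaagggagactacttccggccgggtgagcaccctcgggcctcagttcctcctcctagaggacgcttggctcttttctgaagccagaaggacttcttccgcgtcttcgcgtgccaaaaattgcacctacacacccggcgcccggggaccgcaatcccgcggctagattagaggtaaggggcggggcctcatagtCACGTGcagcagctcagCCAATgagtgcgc

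The 6 SREBP2 targets outside synthesis were also all positive (median 0.77, 4 at an unadjusted p under 0.05, 0 called by edgeR and 0 by DESeq2 with length offsets). Srebf2, which encodes SREBP2 itself, had 0.60 ± 0.18 (unadjusted p = 0.00254, adjusted 0.177). Of the 8 LXR targets and sterol efflux genes, 2 were positive and 6 negative (median −0.13), and 0 were called by edgeR. DESeq2 with length offsets called 1. The partners of the canalicular sterol exporter led this list. Abcg8 was at 87.6 to 235 CPM (median 148) in females on the WD and 62.1 to 93.2 CPM (median 76.2) in females on the CD, against 223 to 356 CPM (median 254) in males on the WD and 58.1 to 96.0 CPM (median 78.0) in males on the CD. It had −0.85 ± 0.22 (0.000763, 0.119) and Abcg5 −0.80 ± 0.27 (0.00650, 0.249).

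Fatty acid synthesis and desaturation genes lay on the positive side too. Of 17 tested, 16 were positive and 9 had an unadjusted p under 0.05 (median 1.05), while edgeR called 0 and DESeq2 with length offsets 1. The median was 1.04 within the 10 libraries, with 15 of 17 positive and 1 at an unadjusted p under 0.05, where 10.6% of all genes had one, and with the term 1 of 17 had such a p. Pnpla3, a lipid droplet acylhydrolase, was at 2.20 to 90.8 CPM (median 20.3) in females on the WD and 6.90 to 137 CPM (median 30.7) in females on the CD, against 0.0781 to 5.47 CPM (median 1.23) in males on the WD and 6.26 to 54.0 CPM (median 18.0) in males on the CD. Again the male diets were separate, and males on the WD had the lowest median. Its difference was 3.42 ± 1.04 (unadjusted p = 0.00302, adjusted 0.193). Acacb, the acetyl-CoA carboxylase of the mitochondrial surface, had 1.53 ± 0.58 (0.0146, 0.313), and the desaturase gene Fads1 1.05 ± 0.36 (0.00643, 0.249).

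Lists under PPARα lay on the negative side. All 7 ω-oxidation genes were negative (median −1.74, or −1.67 without Cyp4a12b, which was at 0 in a whole group), 5 at an unadjusted p under 0.05, with Aldh3a2 called. DESeq2 with length offsets called 4 of the 7. Within the 10 libraries the median was −2.77, with 6 of 7 negative. Cyp4a10, a fatty acid ω-hydroxylase, was at 218 to 970 CPM (median 464) in females on the WD and 119 to 967 CPM (median 326) in females on the CD, against 219 to 1091 CPM (median 512) in males on the WD and 33.5 to 287 CPM (median 58.3) in males on the CD. Its levels in males on the CD stood apart from those of the other groups only in the median, since the ranges overlapped. The difference was −2.16 ± 0.65 (unadjusted p = 0.00272, adjusted 0.184). Cyp4a31 had −1.74 ± 0.52 (0.00250, 0.177) and Cyp4a32 −1.28 ± 0.36 (0.00167, 0.149), and reads of this close family may be divided among its members.

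Of the 12 other PPARα targets, 11 were negative and 9 had an unadjusted p under 0.05 (median −0.86), 0 called by edgeR and 1 by DESeq2 with length offsets. The median was −1.37 in KO mice and −0.56 in WT mice, −0.89 in KO mice within the 10 libraries, and −0.46 over all mice with the term for them. Vnn1, a pantetheinase that breaks down a product of CoA degradation, was at 46.6 to 142 CPM (median 68) in females on the WD and 17.0 to 105 CPM (median 48.7) in females on the CD, against 30.4 to 149 CPM (median 69.1) in males on the WD and 8.88 to 29.1 CPM (median 13.2) in males on the CD. It separated the diets in males. The difference was −1.80 ± 0.45 (unadjusted p = 0.000476, adjusted 0.102). Cpt1b, a carnitine palmitoyltransferase, had −1.49 ± 0.37 (0.000380, 0.0935) and Angptl4, an inhibitor of lipoprotein lipase, −1.50 ± 0.50 (0.00607, 0.246), which was −0.18 with the term.

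Differences were smaller in the oxidation lists proper. Of 22 peroxisomal genes, 18 were negative and 9 had an unadjusted p under 0.05 (median −0.25), and edgeR called 0 while DESeq2 with length offsets called 1. Hsd17b4, the bifunctional protein that also acts in bile acid side chain shortening, had −0.38 ± 0.11 (unadjusted p = 0.00115, adjusted 0.131). In contrast Hacl1, the lyase of α-oxidation, had 0.60 ± 0.18 (0.00279, 0.185). Of 22 mitochondrial oxidation and ketogenesis genes, 18 were negative and 4 had an unadjusted p under 0.05 (median −0.15), with 0 called by edgeR and 0 by DESeq2 with length offsets. Of 17 genes of TAG synthesis and lipid droplets, 11 were negative and 4 had such a p (median −0.25), with 0 called by edgeR and 2 by DESeq2 with length offsets. Cidec, a lipid droplet fusion protein, reached 41 CPM in males on the WD and had −3.23 ± 0.87 (0.000985, 0.125).

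**Figure D4:**
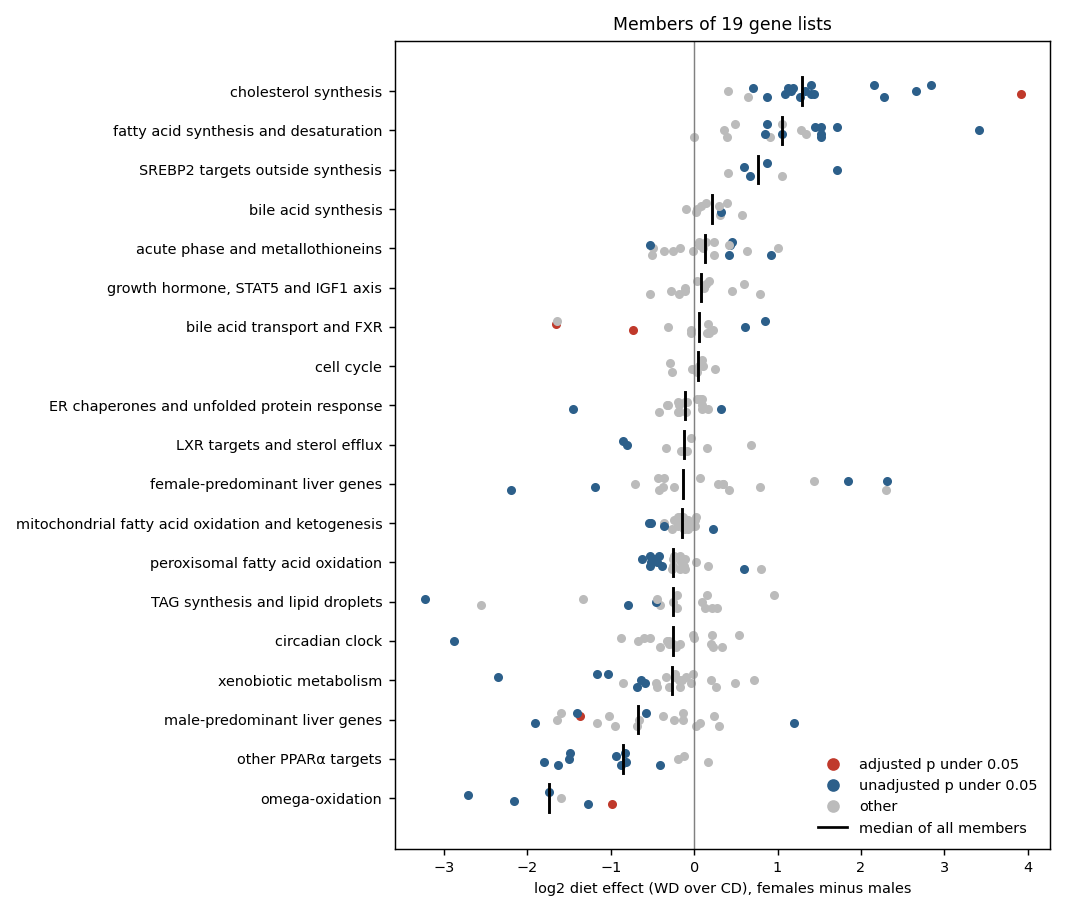
Log2 difference of the diet effect, females minus males (horizontal axis), of the tested members of 19 gene lists, 1 point per gene and a bar at the median of all members. Members at 0 in a whole group count in the median but are not drawn, and blue points have an unadjusted p under 0.05. Sterol and fatty acid synthesis lie to the right (medians 1.299 and 1.05), ω-oxidation and other PPARα targets to the left (−1.74 and −0.86), and few points are red, that is, called.

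Lists of bile acid genes were mixed. Of 10 synthesis genes, 9 were positive with 1 at an unadjusted p under 0.05 (median 0.22), and edgeR and DESeq2 with length offsets each called 0. Transport and FXR genes had 6 of 12 on each side (median 0.06). Abcc3 and Abcb4, described above, were the 2 called. Slc10a1, the sodium-dependent uptake carrier of bile acids, was at 506 to 724 CPM (median 629.9) in females on the WD and 536 to 726 CPM (median 641) in females on the CD, against 314 to 581 CPM (median 511) in males on the WD and 529 to 975 CPM (median 812) in males on the CD. Its male diets overlapped a little. It had 0.61 ± 0.15 (unadjusted p = 0.000436, adjusted 0.0985). Abcc4, a second sinusoidal exporter, had 0.85 ± 0.28 (0.00527, 0.227), and 0.26 ± 0.31 within the 10 libraries (unadjusted p = 0.415).

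Of the members of the lists of sex-predominant genes only Cyp2d9 was called. These lists do not hold every called gene that differed by sex, since Mup-ps18 was higher in every male than in every female. Of 21 female-predominant genes, 10 were positive and 11 negative, with 5 at an unadjusted p under 0.05 and 0 called by edgeR, while DESeq2 with length offsets called 2. Their median was −0.14, or 0.18 without 3 genes at 0 in a whole group, and it was −0.29 without KO males on the CD replicate 2 and 0.30 without WT males on the WD replicate 2. Cyp17a1, a steroid hydroxylase and lyase, was at 60.7 to 342 CPM (median 129) in females on the WD and 105 to 333 CPM (median 225) in females on the CD, against 1.55 to 10.8 CPM (median 4.24) in males on the WD and 7.88 to 166 CPM (median 30.5) in males on the CD. Its difference was 2.32 ± 0.58 (unadjusted p = 0.000522, adjusted 0.104), with 0.50 in KO and 4.14 in WT mice. Cyp3a41a was at 1898 to 3812 CPM in females on the WD and 1610 to 3051 CPM in females on the CD, against 0 to 3.10 and 0 to 0.659 CPM in males, so its difference of −2.20 ± 0.54 (0.000401, 0.0936) rests on few counts in males.

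Of 22 male-predominant genes, 17 were negative and 5 had an unadjusted p under 0.05 (median −0.67), with Cyp2d9 called. The median was −0.17 in KO and −1.03 in WT mice, and 0.34 in KO mice within the 10 libraries. Mup1, a major urinary protein, was at 6.86 to 22.9 CPM (median 17.9) in females on the WD and 5.80 to 15.8 CPM (median 13.2) in females on the CD, against 434 to 2505 CPM (median 951) in males on the WD and 84.2 to 641 CPM (median 202) in males on the CD. It had −1.41 ± 0.56 (0.0182, 0.324), and the urinary protein genes are near-identical copies that share reads. Of 12 genes of growth hormone, STAT5 and IGF1, 7 were positive and 0 had an unadjusted p under 0.05 (median 0.08). edgeR and DESeq2 with length offsets called 0 of them, and 2 had such a p in DESeq2.

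Xenobiotic metabolism genes were mostly negative, 20 of 24, with 7 at an unadjusted p under 0.05 (median −0.27), edgeR calling 0 and DESeq2 with length offsets 1. Cyp3a11, the main hepatic CYP3A enzyme, had −1.03 ± 0.35 (unadjusted p = 0.00624, adjusted 0.249) and Ephx1, microsomal epoxide hydrolase, −0.64 ± 0.22 (0.00718, 0.255). Of 20 acute phase genes and metallothioneins, 13 were positive (median 0.13) and 5 had such a p, and edgeR called 0 while DESeq2 with length offsets called 1. Apcs, serum amyloid P, was at 96.4 to 134 CPM (median 113) in females on the WD and 88.9 to 122 CPM (median 109.8) in females on the CD, against 28.0 to 76.4 CPM (median 38.7) in males on the WD and 53.0 to 109 CPM (median 76.2) in males on the CD. It had 0.92 ± 0.22 (0.000253, 0.0740). The fibrinogen chains Fga, Fgb and Fgg had 0.43 ± 0.14, 0.46 ± 0.15 and 0.42 ± 0.16, with adjusted p of 0.228, 0.238 and 0.317. Of the 19 clock genes 14 were negative, of 18 ER chaperone and unfolded protein response genes 11 were negative, and of 8 cell cycle genes 5 were positive (medians −0.25, −0.11 and 0.05), with unadjusted p under 0.05 for 1, 2 and 0 and no call by edgeR. DESeq2 with length offsets called 1 clock gene and 0 in the other 2 lists. Single libraries turned the sign of 4 further pathway medians near 0: that of bile acid transport was −0.04 without KO females on the WD replicate 2, growth hormone −0.01 without WT females on the CD replicate 2, acute phase −0.04 without WT males on the CD replicate 4 and cell cycle −0.10 without KO males on the CD replicate 1.

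The lists not yet set beside the second fit had these medians within the 10 libraries. SREBP2 targets outside synthesis had 0.87, with 6 of 6 positive, and LXR targets −0.34. Peroxisomal genes had −0.32, mitochondrial genes −0.14 and genes of TAG synthesis −0.25. Bile acid synthesis had 0.17 and transport 0.18, xenobiotic metabolism −0.39 and clock genes −0.08. These signs were the same as over all mice. With the term for the 10 libraries the median over all mice was −0.07 for peroxisomal genes, 2 of 22 at an unadjusted p under 0.05. It was −0.10 for mitochondrial genes and 0.02 for TAG synthesis, while the other lists just named kept their sign. Within the 10 libraries acute phase genes (−0.13) and cell cycle genes (−0.05) had the opposite sign to that over all mice, and so had the ER chaperone list (0.03). The fit of all KO mice gave these lists −0.21, 0.13 and 0.20. Among KO mice alone, then, only the cell cycle list of these changed sign. Bile acid transport also did, from −0.04 in all KO mice. Female-predominant genes had −0.45 and growth hormone genes 0.47.

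Markers of hepatocytes and of most other liver cells gave no call. The medians were 0.30 for 8 macrophage markers, 0.56 for 2 neutrophil markers, −0.23 for 9 markers of stellate cells and fibroblasts, 0.01 for 8 endothelial, 0.35 for 5 cholangiocyte and 0.38 for 4 erythroid markers, and 0.25 for 5 hepatocyte markers. At an unadjusted p under 0.05 were 1 marker each of stellate cells, endothelial cells and hepatocytes and 0 of the other 4 lists. DESeq2 with length offsets called 0 in all 7. The median of the stellate cell and fibroblast markers was 0.11 without KO males on the WD replicate 1 and 0.14 without the 4 libraries with acinar transcripts, and that of the neutrophil markers was −0.04 without WT males on the CD replicate 4. The endothelial median was −0.02 without WT females on the WD replicate 2. Macrophage markers summed to 429 to 772 CPM in females on the WD and 322 to 474 CPM in females on the CD, against 301 to 579 CPM in males on the WD and 293 to 482 CPM in males on the CD.

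The contrast was then fitted in each genotype on its own, on 16 libraries that the other fit did not use. In KO mice 22 of 12735 genes were called (0.173%), 5 with a higher and 17 with a lower ratio in females, and 9.82% had an unadjusted p under 0.05. In WT mice 2 of 12632 were called (0.0158%), Gm13339 and Ugt2b38, and 8.26% had such a p. Of the 33 genes called in the mean of the genotypes, 32 could be fitted in both and had the same sign in both, 32 with an unadjusted p under 0.05 in KO and 27 in WT mice, as the mean itself favours. Of the 22 genes called in KO mice, 12 had the same sign in WT mice, 4 of them with an unadjusted p under 0.05 there, and 1 (Npnt) had such a p with the opposite sign, where 54.6% of 12505 genes shared their sign between the genotypes. Across those genes, which are not independent replicates, Pearson's r of the 2 differences was 0.371.

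With females only from the 10 libraries, all 22 genes called in KO mice had the same sign and 16 were called, which their selection from the same libraries favours. With the smallest p were Abcc3, Adgrf1, Themis, Cd36, Gpat3 and Sulf2. Adgrf1, an adhesion G protein-coupled receptor, was at 4.02, 4.06, 4.33 and 4.58 CPM in KO females on the WD and 4.46, 6.49, 6.74 and 8.57 CPM on the CD, against 0.844, 1.31, 1.36 and 1.51 CPM in KO males on the WD and 10.2, 12.8, 13.4 and 17.9 CPM on the CD. The male diets lay far apart and the female diets met. The difference was 2.79 ± 0.31 in KO mice (adjusted p = 0.000263) and −0.71 ± 0.68 in WT mice.

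Cd36, the fatty acid translocase, was at 114, 117, 125 and 149 CPM in KO females on the WD and 80, 88.3, 109 and 141 CPM on the CD, against 131, 195, 197 and 198 CPM in KO males on the WD and 31.1, 32.5, 37.9 and 42.5 CPM on the CD. KO males on the CD were the lowest by a wide margin. The difference was −2.05 ± 0.25 (adjusted p = 0.000636) in KO and 0.19 ± 0.59 in WT mice, and −2.12 ± 0.27 in KO mice within the 10 libraries. For Gpat3 it was −2.51 ± 0.35 in KO mice (adjusted p = 0.00367) and −0.54 ± 0.46 in WT mice.

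**Figure D5:**
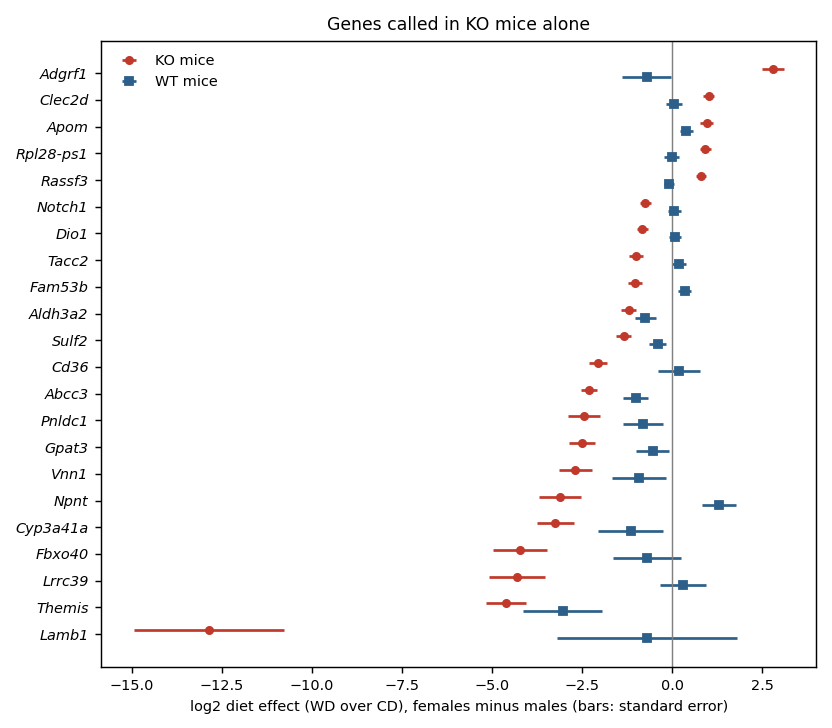
Log2 difference of the diet effect, females minus males (horizontal axis, bars are standard errors), of the 22 genes called in KO mice alone, in KO (red circles) and WT mice (blue squares). All 22 have the smaller absolute value in WT mice, as selection in KO mice favours, and 10 of the 22 have the opposite sign there.

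Whether the sex difference of the diet effect itself differed between the genotypes was tested in the model of all 32 libraries. Of 13109 genes, 1 was called (0.00763%), and 7.15% had an unadjusted p under 0.05. It was Npnt, the gene of nephronectin, an integrin ligand of the extracellular matrix. Npnt was at 1.46, 1.62, 1.80 and 2.04 CPM in KO females on the WD and 1.87, 2.46, 2.94 and 4.62 CPM on the CD, and at 0.464, 1.38, 1.43 and 1.6 CPM in KO males on the WD and 0.0830, 0.210, 0.228 and 0.412 CPM on the CD. In WT mice it was at 2.89, 3.69, 4.03 and 4.04 CPM in females on the WD and 1.18, 1.34, 1.58 and 1.69 CPM on the CD, and at 0.455, 0.480, 0.625 and 1.61 CPM in males on the WD and 0.534, 0.780, 0.806 and 0.949 CPM on the CD. KO males separated by diet in one direction and WT females in the same direction, while the diets overlapped in KO females and WT males. The sex difference was −3.12 ± 0.58 in KO and 1.29 ± 0.47 in WT mice, and their difference −4.39 ± 0.75 (adjusted p = 0.0319). In KO mice within the 10 libraries the sex difference was −3.36 ± 0.61. The call was lost in 19 of the 32 fits that left out a library, without the 4 libraries with acinar transcripts and with the term for the 10 libraries.

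Of the 2 genes called in WT mice, Gm13339 was one of those that moved with the 10 libraries. Ugt2b38, a UDP-glucuronosyltransferase, was at 0, 0, 0.0705 and 0.259 CPM in WT females on the WD and 0.394, 0.527, 0.892 and 0.986 CPM on the CD, against 5.95, 6.92, 8.05 and 10.8 CPM in WT males on the WD and 0.366, 0.953, 1.42 and 1.80 CPM on the CD. The diets were separate in each sex, in opposite directions. The difference was −5.75 ± 0.80 (adjusted p = 0.00856) in WT and 0.36 ± 1.84 in KO mice, and its size rests on few counts, since no WT female on the WD was above 0.259 CPM.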

How the data were processed

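RNA of 32 mouse livers was sequenced as 50 bp paired-end reads from KAPA mRNA HyperPrep libraries. The authors quantified transcripts with Salmon 1.3.0 and a decoy-aware index of GRCm38, and the deposited files hold estimated counts and TPM per transcript, with transcript lengths. TPM was not used here, and the deposited lengths entered only alternatives with length offsets. Of 117135 transcripts 115973 were matched by ID to GENCODE vM21 (GRCm38), an annotation of another release than the Ensembl one of the authors, and 0.315 to 0.424% of counts lay outside it. Estimated counts were summed by gene and rounded. Genes reaching 10 counts in 4 or more libraries were tested with edgeR 4.0.16 (R 4.3.3; TMM, robust quasi-likelihood F test, a mean for each of 8 groups), with Benjamini-Hochberg adjustment over all 13539 genes. DESeq2 1.42.0 was an alternative, as were other size factors, filters, a replicate block and each library left out. Fits without the libraries with acinar transcripts, with the length trend removed, or with attention to the 10 libraries were chosen after seeing the data. Transcripts were compared with blastn 2.17.0 at 95% identity or more. Matches to other genes also covered 28.6% of the transcript of Gpat3, 23.4% of Gpc1, 19.8% of Arsa, 17.6% of Chpt1 and 13% of Pnldc1. Smaller parts of some other called genes were covered as well. Part of the counts of all these genes may be shared. Members and gene lists were chosen with earlier results of these data known.

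Genes named are all those called (at most 40), up to 4 per list by p, up to 6 called in each genotype and up to 4 called between genotypes. Values by group were set for the 8 largest differences per direction at a mean log2 CPM above 0, and those given for other genes were chosen after their values were seen. Tested on simulated data for the mean contrast over 13539 genes, the fit recovered 36% of 1.5-fold, 66% of 2-fold, 89.6% of 4-fold and 93.9% of 8-fold differences. The simulated counts were drawn independently for each gene and library, with no acinar transcripts and no set of libraries apart. These shares may therefore not hold for the real libraries. No 2 libraries agreed within sampling noise (lowest chi-square per gene 11.1 over 496 pairs). Each library is 1 mouse, and litters are not given.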

Additional observations from a re-analysis of the deposited data

Results flagged for a closer look

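The diet effect differed between the sexes, by the test of the difference itself, in 33 genes over both genotypes, 22 in KO mice and 2 in WT mice, and that difference differed between the genotypes in 1 gene, Npnt (−4.39, KO minus WT). The 16 genes with values by group had log2 differences of 3.92 (Sqle), 3.06 (Sult2a7), 3.01 (Hamp2), 1.84 (Srgap3), 1.73 (Sgsm1), 0.68 (Apom), 0.50 (Mitd1) and 0.48 (St3gal4) on the positive side. On the negative side they were −8.45 (Cfd), −3.83 (Themis), −3.77 (Mup-ps18), −3.76 (Tpm2), −3.16 (Gm7298), −2.54 (Krt23), −2.44 (Gm13339) and −2.38 (Gm11512).

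Single libraries stood far from the 3 others of their group, by Dixon's criterion, in 12 of 128 groups of 4 libraries, where chance gives about 1 in 20. Among males on the WD, Themis was at 6.799 CPM in WT replicate 4 (others 1.48 to 2.114 CPM), Krt23 at 7.577 CPM in WT replicate 2 (1.889 to 2.787 CPM) and Tpm2 at 9.275 CPM in KO replicate 3 (12.52 to 12.92 CPM). KO replicate 1 of the same sex and diet held 2.233 CPM of Sqle (others 0.6183 to 0.8443 CPM) and 2.074 CPM of Sgsm1 (0.8388 to 0.9275 CPM), and KO replicate 2 held 1.075 CPM of Gm13339 (1.623 to 1.678 CPM). Among males on the CD, Sult2a7 was at 10.14 CPM in WT replicate 1 (2.373 to 3.38 CPM) and at 1.367 CPM in KO replicate 4 (2.47 to 2.662 CPM), and St3gal4 was at 88.34 CPM in KO replicate 3 (80.15 to 81.0 CPM). In females Cfd was at 8.94 CPM in KO replicate 4 on the WD (0 to 0.1273 CPM) and at 0.0 CPM in WT replicate 3 on the CD (3.468 to 3.568 CPM), and Gm7298 was at 0.0 CPM in WT replicate 3 on the WD (0.2159 to 0.2591 CPM). Without its outlying library St3gal4 was no longer called (adjusted p = 0.0583 without KO males on the CD replicate 3). The other 9 genes kept their calls without theirs.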

How the results depend on the processing

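Of the alternatives, the tool moved the counts most, and the cause was not tested. DESeq2 called 202 genes in the mean of the genotypes, 128 in KO mice, 47 in WT mice and 30 between the genotypes, and 184, 118, 42 and 13 with length offsets, against 33, 22, 2 and 1 with edgeR. edgeR with length offsets called 14 in KO mice, 4 in WT mice and 0 between the genotypes (844 at an unadjusted p under 0.05). Without the libraries with acinar transcripts 106, 43, 14 and 0 were called (1155 in the last at such a p). With the length trend removed WT mice had 5 calls and the genotype contrast 2. With the term for the 10 libraries, estimated from KO females on the CD alone, 5 genes were called in the mean and 0 between genotypes (955 at such a p). Of the 5, 0 were higher in females, against 24.2% of the 33. The signs of Gm11410 (0.355), Gm13340 (0.0214) and Gm11512 (0.41) were turned in that fit. Leaving out each library in turn gave 20 to 63 calls in the mean, 9 to 43 in KO mice, 2 to 16 in WT mice and 0 to 2 between the genotypes. The count of 63 was without WT females on the WD replicate 4, that of 54 without WT females on the CD replicate 2, and that of 20 without WT females on the CD replicate 1. Without WT males on the CD replicates 1 or 4, WT males on the WD replicate 4 or WT females on the WD replicate 3 the mean had 21. In KO mice the 43 were without KO females on the CD replicate 3 and the 9 without KO males on the CD replicate 1, and 11 to 14 were left without KO males on the CD replicates 2 or 3, KO males on the WD replicate 4 or any KO female on the WD. In WT mice the 16 were without WT females on the WD replicate 4, and 4 or 5 were called without WT females on the CD replicates 2 or 3 or on the WD replicate 3.

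With the replicate number as a block, 27 genes were called in the mean (23 of the 33), 18 in KO mice, 4 in WT mice and 0 between genotypes (932 at an unadjusted p under 0.05). The numbers do not pair mice: deviations from group means correlated by 0.0113 on average between same-numbered libraries (−0.473 to 0.393) and by −0.00315 between others. With RLE factors, no filter, filterByExpr and a stricter count filter the mean kept 25 to 33 calls. Acinar markers could not be tested under the last of these. Depth limits low genes most, since 3 counts equal 0.190 to 0.297 CPM.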
